A study of Mus musculus with 127 samples.

Results

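Stat3, Klf5 and Ikzf1 encode 3 transcription factors, and their levels were read from a bulk RNA-seq table of 23366 genes measured in blood stem and progenitor cells of mouse bone marrow. The 3 genes were taken by name. The design follows haematopoietic stem cells with long-term (LT) or short-term (ST) activity and multipotent progenitors (MPP) over hours of culture, with and without bacterial ligands, in young and old mice. Cells were identified by surface markers, cultured, and collected for SMART-seq2, a full-length method for small amounts of polyadenylated RNA.

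Young mice 1, 2 and 3 and old mouse 2 gave cells that were stimulated with 100 ng/ml LPS, a ligand of Toll-like receptor 4, plus 1 ug/ml Pam3csk4, a ligand of Toll-like receptor 2, and collected at 0, 0.5, 1, 2, 4, 8 and 12 h. Young mouse 4 and old mouse 4 gave unstimulated cells, kept in the same medium and taken at 0, 2, 4 and 8 h. Some 0 h libraries (young mice 1 and 2 and part of those of old mouse 2) carry the ligand treatment in their label and the others none; they were used as 1 baseline per mouse and cell type, on the assumption that 0 h means no exposure, and every fold over 0 h rests on it. No genetic change is stated for any animal, and strain, sex and exact age are not given in the sources used here. The with-ligand and without-ligand courses came from different animals, and the unstimulated course had 1 mouse at each age.

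STAT3 is held in the cytoplasm until Janus kinases phosphorylate it downstream of interleukin 6, interleukin 10 and granulocyte colony-stimulating factor receptors. It then enters the nucleus, where its targets include its own gene and Socs3, the feedback inhibitor of the pathway. KLF5 is a zinc-finger factor of the Krüppel-like family, which binds CACCC and GC boxes, and it is known in blood for roles in progenitor homing and granulocyte output. Ikaros, the product of Ikzf1, is a zinc-finger factor needed for lymphoid development that recruits the NuRD chromatin-remodelling complex and is already present in multipotent cells.

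The 127 deposited libraries included 6 near-empty ones from LT of old mouse 2, with 7 to 41 counts each, which were dropped; repeats of a sample were summed to 108 libraries of 990801 to 11764630 counts (median 4200713). Between 6241 and 14096 genes were detected per library. In young LT of mice 1 to 3 the median number of detected genes was 12155 at 0 h and 7547 at 8 h, and in MPP it was 13281 and 11442. NF-kB target genes chosen as a check of stimulation (Nfkbia, Nfkbiz, Tnfaip3, Nfkb2, Relb and Icam1) passed the test upward in 48 of 54 tests of stimulated cells against 0 h. Summed levels of 8 MPP marker genes at 0 h were higher in MPP than in LT in 6 of 6 mice, whereas 11 LT-HSC marker genes were higher in LT than in MPP in 4 of 6 mice. Transcripts of neutrophil granule proteins, which stem cells are not known for, took 0.00248% to 0.2% of counts in the libraries of young mouse 3 and 0.564% to 7.86% in those of the other 5 mice. Of markers of other cells, erythroid genes passed in 2 of 81 of these tests in edgeR, both lower (22 with an unadjusted p under 0.05; 16 in DESeq2, all lower), and their median change was -6.30 in LT at 8 and 12 h, where that of all genes was -0.42. Monocyte and macrophage genes passed in 1 of 72, lower (9 with such a p; 4 in DESeq2), and neutrophil granule genes in 0 of 54 (0 with such a p; 0 in DESeq2). B cell, T and NK cell, megakaryocyte, and stromal and endothelial genes passed in 0 of 72, 72, 54 and 72 tests in edgeR. In edgeR 11, 17, 15 and 14 had an unadjusted p under 0.05. DESeq2 passed 6, 10, 9 and 2, all lower except 1 T and NK cell test. Per comparison 0.154% to 0.855% of all genes passed in edgeR, and 105 to 1197 genes in DESeq2. The column names carry a date, whose meaning is not stated, for the 4 stimulated mice, a different one for each, so that mouse and date cannot be told apart. Both unstimulated mice carry a shared tag and no date, and whatever the tag stands for cannot be told apart from the absence of ligand.

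The RefSeq promoter windows of the members are shown because KLF family factors bind CACCC and GC boxes, and Klf5 is itself one of the 3 genes. Each run holds the 250 bases before an annotated start in GRCm38.p6, a build other than the mm9 of the counts, so it describes the gene and not a measured region. Capitals mark every CACCC or GGGCGG box on either strand (a box on the other strand reads GGGTG or CCGCCC).
Stat3, chr11:100939541-100939790, minus strand: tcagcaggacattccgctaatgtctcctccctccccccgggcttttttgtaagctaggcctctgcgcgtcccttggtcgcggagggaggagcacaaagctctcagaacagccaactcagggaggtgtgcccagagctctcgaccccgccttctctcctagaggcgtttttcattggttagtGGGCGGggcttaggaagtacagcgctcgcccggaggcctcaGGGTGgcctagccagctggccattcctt
Ikzf1 start 1, chr11:11685675-11685924, plus strand: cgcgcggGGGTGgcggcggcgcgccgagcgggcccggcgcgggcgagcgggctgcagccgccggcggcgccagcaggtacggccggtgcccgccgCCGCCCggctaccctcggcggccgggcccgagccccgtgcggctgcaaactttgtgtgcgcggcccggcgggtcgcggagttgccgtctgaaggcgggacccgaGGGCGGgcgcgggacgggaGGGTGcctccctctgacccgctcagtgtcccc
Ikzf1 start 2, chr11:11689927-11690176, plus strand: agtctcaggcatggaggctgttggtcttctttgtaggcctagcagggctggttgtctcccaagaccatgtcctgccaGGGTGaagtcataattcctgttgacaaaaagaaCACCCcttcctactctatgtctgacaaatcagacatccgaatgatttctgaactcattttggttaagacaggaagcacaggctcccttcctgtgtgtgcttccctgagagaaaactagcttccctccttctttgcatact
The Stat3 window held 1 CACCC box, beginning 28 bases before the start, and 1 GGGCGG box 69 bases before it. Ikzf1 start 1 held 2 of each, and start 2 held 2 CACCC boxes and no GGGCGG box. These are common letters: among 32817 promoter windows of the same length 52% held a CACCC box and 32.7% a GGGCGG box. No window of these 3 held the STAT motif TTCNNNGAA (7.01% of all windows), the Ikaros motif TGGGAA (21.6%) or the NF-kB consensus (3.9%), which says only that these letters are not in these windows. For Klf5 no promoter is shown.

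Stat3 was counted in all 108 libraries, at 80.5 to 1130 CPM (counts scaled to a library total of 1e6). At 0 h it stood at 303, 174, 300.4 and 251 CPM in LT of young mice 1, 2, 3 and 4, at 197, 178, 341 and 208 CPM in ST, and at 189.5, 178, 266 and 259 CPM in MPP. The 3 cell types overlapped at baseline, and LT minus MPP was 0.21 ± 0.28 on the log2 scale (SE; 4 mice each; edgeR adjusted p = 1). In that comparison 0% of 11568 genes passed the test, with 307 genes at an unadjusted p under 0.05 and 28 passing in DESeq2. ST against MPP likewise gave 0%, with 116 genes at an unadjusted p under 0.05 and 1 in DESeq2.

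At 2 h Stat3 was above the same mouse's 0 h level in every one of the 18 pairs of mouse and cell type, with or without ligand. The fold over 0 h ran from 1.04 (ST of old mouse 2) to 4.31 (ST of young mouse 4), with a median of 2.22. Among the 14401 genes tested in all 6 mice, 1.15% were above 0 h in all 18 pairs. This pattern was noticed in the values, so its share is given as a description with no test. The shares of genes beside other counts of mice or pairs below are likewise descriptions with no test.

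In stimulated LT, Stat3 reached 556, 434 and 804 CPM at 2 h in young mice 1, 2 and 3. In ST the 2 h levels were 440.1, 458 and 713 CPM, and in MPP 429, 445 and 588 CPM. All 9 values were above the same mouse's 0 h level, a pattern shared by 2.76% of 13678 genes. At 1 h LT stood at 149, 190.1 and 441 CPM and MPP at 434, 312 and 388 CPM, so that MPP was higher in mice 1 and 2 and LT in mouse 3. In the 12 stimulated courses the highest Stat3 level fell at 2 h in 10, the exceptions being MPP of young mouse 1 (1 h) and ST of old mouse 2 (12 h). By 12 h Stat3 was below its own 2 h level in all 9 young courses, a pattern shared by 2.38% of 13678 genes; the levels were 419, 275 and 487 CPM in LT, 178, 309 and 163 CPM in ST, and 226, 285 and 481 CPM in MPP.

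**Figure D1:**
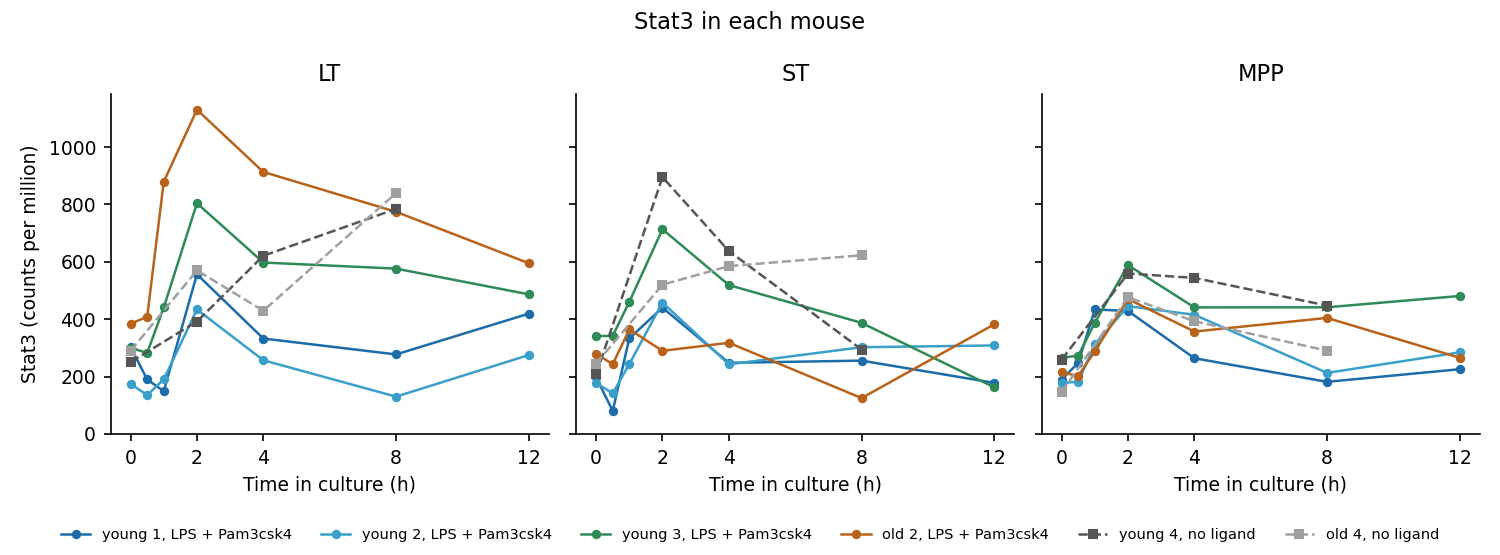
Stat3 in CPM against hours in culture for LT, ST and MPP, 1 line per mouse; solid lines are stimulated and dashed lines unstimulated mice. All 18 lines are higher at 2 h than at 0 h, the dashed lines included.

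Stat3 was also higher after culture without the ligands. Without them, Stat3 in LT of young mouse 4 went from 251 CPM at 0 h to 392, 621 and 784 CPM at 2, 4 and 8 h, and in LT of old mouse 4 from 290 to 570.1, 429 and 839 CPM. In ST of young mouse 4 it went from 208 to 895 CPM at 2 h and to 294 CPM at 8 h, and in ST of old mouse 4 from 245 to 520.4, 585 and 623 CPM. MPP of young mouse 4 went from 259 to 559, 544 and 447 CPM, and MPP of old mouse 4 from 147 to 477, 393 and 290.4 CPM. Both unstimulated LT courses were highest at 8 h, their last time, and the 4 stimulated LT courses were highest at 2 h.

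The change in Stat3 with ligand minus that without ligand, averaged over 2, 4 and 8 h, was -0.16 ± 0.57 in LT, -0.89 ± 0.58 in ST and -0.29 ± 0.57 in MPP on the log2 scale (SE; 4 stimulated and 2 unstimulated mice; edgeR adjusted p = 1 in each). The approximate 95% intervals (from the SE) ran from -1.27 to 0.95 in LT, from -2.02 to 0.24 in ST and from -1.41 to 0.82 in MPP. The LT value changed sign without young mouse 1 (0.04) and without the libraries of under 8000 detected genes (0.13). The same contrasts called 0.0278% of 14401 genes in LT, 0.0486% in ST and 0.0833% in MPP, which is 4, 7 and 12 genes. DESeq2 called 120, 165 and 107, and the fit with the mouse as a replicate block 12, 24 and 29. Leaving out 1 mouse moved the counts to between 0 and 15 in LT, 2 and 16 in ST, and 2 and 14 in MPP, with the lowest counts without young mouse 2 in each and, in LT, also without old mouse 2.

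In the fit of young mice 1 to 3, Stat3 at 2 and 4 h was 1.049 ± 0.45 above 0 h in LT, 0.96 ± 0.45 in ST and 1.201 ± 0.46 in MPP (log2 fold change ± SE, n = 3 mice). None passed edgeR's quasi-likelihood test after Benjamini-Hochberg adjustment over 13678 genes (adjusted p = 0.26, 0.47 and 0.61), where 0.453%, 0.314% and 0.336% of genes passed. With the mouse as a replicate block the MPP value passed (1.23 ± 0.32, adjusted p = 0.033), as it did in a fit of the compared MPP libraries alone (1.27 ± 0.24, adjusted p = 0.026). The median of all tested genes in these comparisons was -0.41, -0.28 and -0.22, and size factors in place of TMM moved it by at most 0.15. In the response averaged over all times LT minus MPP was -0.31 ± 0.54 and ST minus MPP -0.34 ± 0.54 (edgeR adjusted p = 1), with approximate 95% intervals of -1.37 to 0.75 and -1.40 to 0.72. These 2 tests of the difference called 0% of genes each in edgeR, with 129 and 63 genes at an unadjusted p under 0.05 and 101 and 63 passing in DESeq2.

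**Figure D2:**
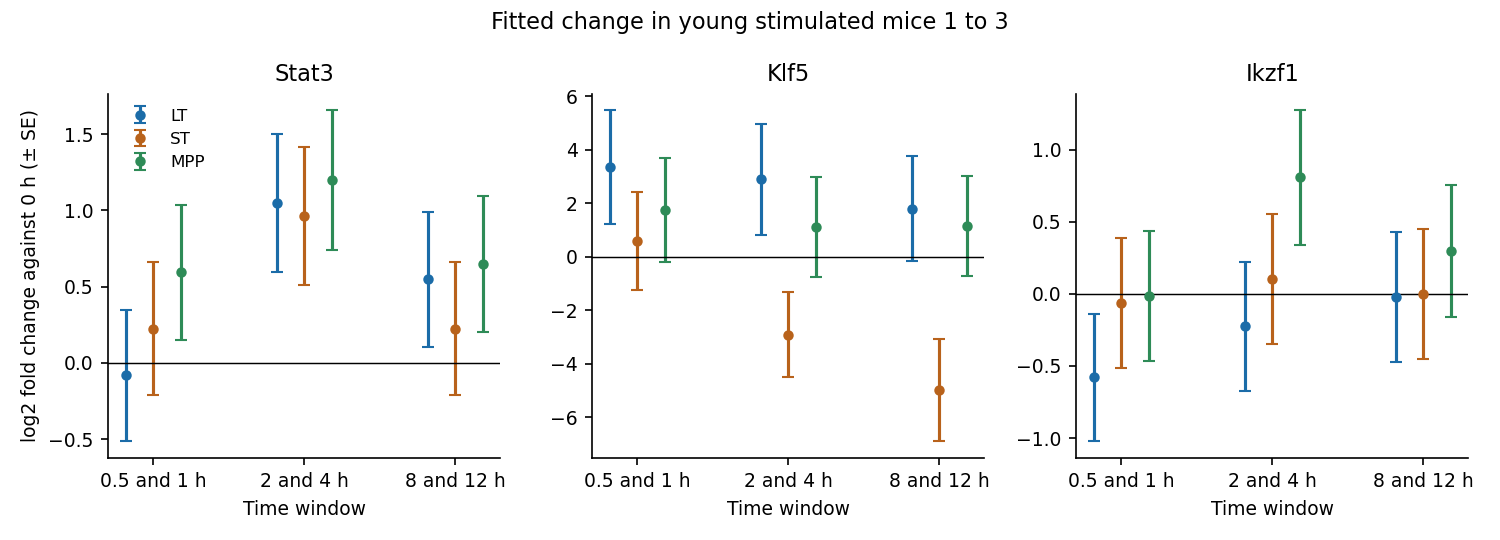
Fitted log2 fold change against 0 h (points) with its standard error (bars) for Stat3, Klf5 and Ikzf1 in young mice 1 to 3, by time window and cell type. Stat3 lies near 1 in all 3 cell types at 2 and 4 h, and Klf5 in ST lies at -2.92 and then -4.99 with bars of 1.59 and 1.92.

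In old mouse 2, the single stimulated old animal, Stat3 in LT went from 384 CPM at 0 h to 879 at 1 h, 1130 at 2 h and 595 at 12 h, the highest LT values in the study at 1, 2 and 4 h. Its ST values were 279.9 CPM at 0 h, 289.8 CPM at 2 h and 125 CPM at 8 h, and its MPP values 214 CPM at 0 h, 470.0 CPM at 2 h and 266 CPM at 12 h. At 0 h the old LT libraries, at 384 and 290 CPM, minus the young ones gave 0.36 ± 0.32 (log2, SE; edgeR adjusted p = 1; 2 old and 4 young mice). The age comparisons at 0 h called 0% of 12983 genes in LT, 0% in ST and 0% in MPP by edgeR, with 440, 551 and 56 genes at an unadjusted p under 0.05 and 19, 61 and 4 passing in DESeq2.

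The pathway around Stat3 was read from fixed lists, chosen with earlier results of these data known. In the 9 comparisons of stimulated cells with 0 h, 0.154% to 0.855% of all 13678 genes passed in edgeR and 105 to 1197 genes in DESeq2. At the edgeR shares a short list would hold few or no passes. Among ligands that activate STAT3, 0 of 81 tests of stimulated cells passed in edgeR (33 with an unadjusted p under 0.05; 29 in DESeq2, of which 27 were higher). Il6, the cytokine that gives the pathway its best-known input, was at 0 CPM at 0 h in LT and MPP of young mice 1 to 3 and at 108 ± 104 CPM in LT and 54.8 ± 27.1 CPM in MPP at 12 h (SD, n = 3). Receptors passed in 0 of 99 tests (11 with an unadjusted p under 0.05; 5 in DESeq2), and Il6st, which encodes the shared signal-transducing subunit gp130, stood at 101 ± 76.0 CPM in LT at 0 h and 20.7 ± 18.8 CPM at 12 h. Il6ra, the interleukin 6 receptor chain, stood at 39.8 ± 4.28 CPM at 0 h and 25.5 ± 1.54 CPM at 12 h in young MPP. The 4 Janus kinases passed in 0 of 36 tests in edgeR (2 with an unadjusted p under 0.05; 0 in DESeq2, where 1 had such a p).

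Socs3, whose product blocks the receptors that activate STAT3, differed between the courses with and without ligand in MPP. In MPP of young mice 1 to 3 Socs3 was at 14.4 ± 3.23 CPM at 0 h, 73.9 ± 25.2 CPM at 2 h and 85.5 ± 3.65 CPM at 8 h (SD, n = 3). In MPP of young mouse 4, without ligand, it was at 11.6 CPM at 2 h and had no counts at 4 and 8 h. With ligand minus without ligand, Socs3 in MPP was higher by 6.89 ± 1.42 (log2, SE; edgeR adjusted p = 0.019), a fitted value that depends on the libraries without counts and is no bound. The adjusted p was above 0.05 when any of young mice 1, 2, 3 or 4 or old mouse 2 was left out, at 0.0698 to 0.42. The difference was 3.51 ± 1.19 in LT (adjusted p = 1) and 5.66 ± 1.43 in ST (adjusted p = 0.18; 0.022 with the mouse as a replicate block). Without ligand only the levels of young mouse 4 are listed here, and the fit also holds old mouse 4. Without old mouse 4 the difference was 9.80 in LT, 7.44 in ST and 9.17 in MPP. Without young mouse 4 it was 1.76 in LT, 4.90 in ST and 5.90 in MPP. Of the negative regulators of the pathway, 10 genes with Socs3 among them, 0 of 90 tests of stimulated cells against 0 h passed in edgeR. In edgeR 18 had an unadjusted p under 0.05, and DESeq2 passed 9. Per comparison 0.154% to 0.855% of all genes passed in edgeR.

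Of 14 genes listed as STAT3 targets, Junb, an AP-1 subunit, was the 1 that passed against 0 h, in 6 of 126 tests (49 of the 126 had an unadjusted p under 0.05, and DESeq2 passed 27). Junb was 3.58 ± 0.42, 3.40 ± 0.41 and 3.67 ± 0.42 higher at 0.5 and 1 h in LT, ST and MPP, and 2.01 ± 0.38, 1.79 ± 0.37 and 2.30 ± 0.39 higher at 2 and 4 h (log2 ± SE; edgeR adjusted p from 6.5e-08 to 0.0079). Junb is an immediate early gene of many pathways. With ligand minus without ligand, Junb in MPP was higher by 2.32 ± 0.48 (adjusted p = 0.019), a call lost without young mouse 2 or 4 or without either old mouse (adjusted p = 0.13 to 0.89). The 3 values at 2 and 4 h lost the call without young mouse 2 (adjusted p = 0.67, 1 and 0.53). At 0.5 and 1 h 0.212%, 0.212% and 0.154% of all genes passed in LT, ST and MPP.

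The other STAT genes passed in no test, counted with Stat3 as 0 of 63 tests of stimulated cells in edgeR. Of these tests 4 had an unadjusted p under 0.05. DESeq2 passed 0, where 3 had such a p. Per comparison 0.154% to 0.855% of all genes passed in edgeR. Stat5a, which carries signals of growth cytokines, stood at 110.0 ± 95.1 CPM at 0 h and 324 ± 167 CPM at 2 h in stimulated young LT and at 46.4 CPM at 2 h in unstimulated LT of young mouse 4 (with minus without ligand 2.66 ± 0.93, edgeR adjusted p = 1). Over 19 comparisons the smallest edgeR adjusted p of Stat5a was 0.42.

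By the likeness of their course over the 21 group means of stimulated young cells (Pearson's r of log2(CPM + 1), 8842 genes with a mean of at least 10 CPM), the genes nearest to Stat3 were N4bp1 (r = 0.887), Arhgef3 (0.877), Itga5 (0.861), Itgav (0.801) and Vasp (0.791). Itga5 and Itgav encode integrin alpha subunits and Vasp an actin-regulating protein. These correlations share libraries and are descriptions.

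Klf5 was low and uneven: it had no counts in 14 of 108 libraries, a median of 5.36 CPM and a maximum of 112 CPM, where 1 count is worth 0.085 to 1.01 CPM. At 0 h it stood at 1.95, 4.08, 0 and 47.4 CPM in LT of young mice 1, 2, 3 and 4, at 5.31, 9.71, 0.975 and 35.1 CPM in ST, and at 5.07, 0.836, 0.249 and 23.5 CPM in MPP. Young mouse 4 was the highest in each cell type, and young mouse 3 the lowest. The old mice stood at 5.16 and 4.66 CPM in LT, 4.05 and 10.7 CPM in ST, and 4.81 and 0.866 CPM in MPP. Repeats of 1 sample could also part: the 2 repeats of LT of young mouse 2 at 0 h held 48 and 0 Klf5 counts.

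Within each stimulated young mouse Klf5 was above its own 0 h level at 0.5 h in all 9 courses, and at 2 h in all 9. Of 13678 genes, 1.36% did so at 0.5 h and 2.76% at 2 h, shares given as descriptions with no test. With the deepest repeat in place of the sum, 88.9% of the 9 pairs were higher at 0.5 h. In LT the values at 0, 0.5, 1 and 2 h were 1.95, 18.7, 112 and 27.0 CPM in young mouse 1, 4.08, 10.8, 12.7 and 29.8 CPM in young mouse 2, and 0, 2.56, 0 and 2.13 CPM in young mouse 3. The highest of these was 491 counts in LT of young mouse 1 at 1 h, where LT of young mouse 3 had none. At 4, 8 and 12 h LT stood at 31.1, 62.1 and 5.80 CPM in young mouse 1, at 2.77, 0 and 0.523 CPM in young mouse 3, and at no count in young mouse 2. In MPP Klf5 went from 5.07, 0.836 and 0.249 CPM at 0 h to 14.95, 6.37 and 3.37 CPM at 1 h. Old mouse 2 went the other way in LT at 0.5 h, from 5.16 to 3.06 CPM, and in ST at 2 h, from 4.05 to 1.75 CPM. Its other values at 0.5 and 2 h were above 0 h. Without ligand, Klf5 in MPP went from 23.5 to 25.5 CPM at 2 h in young mouse 4 and from 0.866 to 9.96 CPM in old mouse 4. In LT it went from 47.4 to 14.5 CPM and from 4.66 to 11.3 CPM in these mice. With minus without ligand, Klf5 was 3.30 ± 2.18 in LT, 0.27 ± 2.23 in ST and 0.32 ± 2.17 in MPP (log2, SE), and none passed in edgeR.

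**Figure D3:**
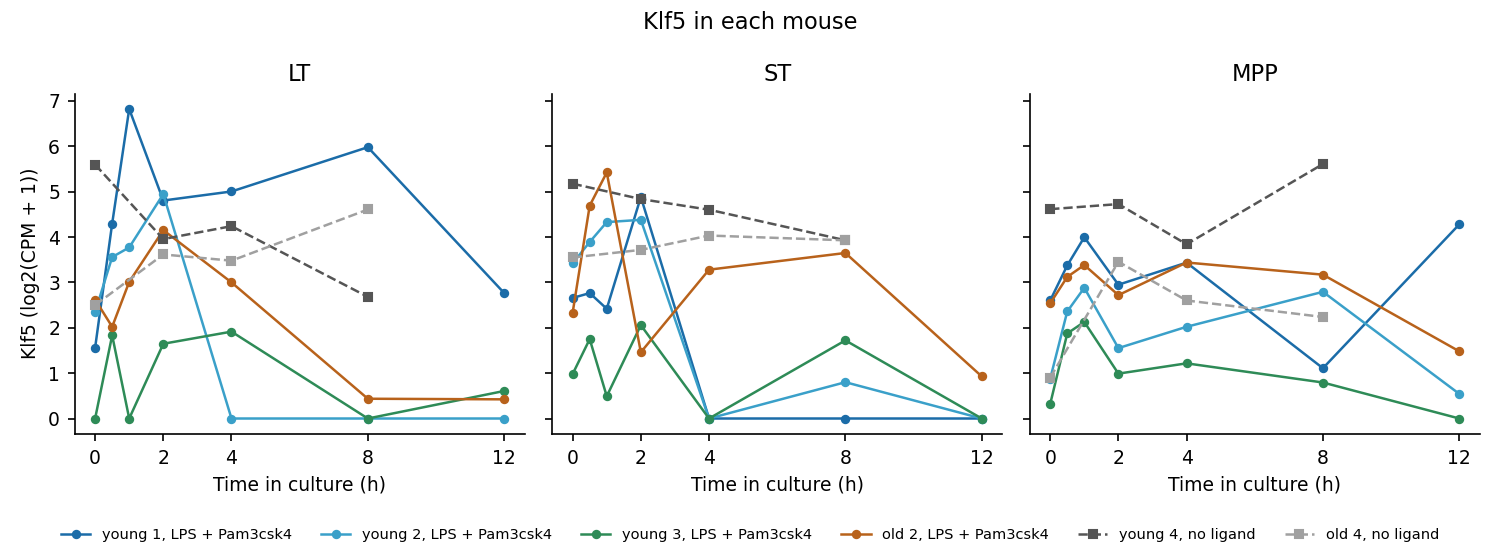
Klf5 as log2(CPM + 1) against hours in culture for LT, ST and MPP, 1 line per mouse; solid lines are stimulated and dashed lines unstimulated mice. The 3 young stimulated ST lines meet at 0 at 4 h and 12 h, and young mouse 4 starts highest in each panel.

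In ST Klf5 counts were then missing at 2 later times. Klf5 in ST stood at 28.5, 19.8 and 3.17 CPM at 2 h in young mice 1, 2 and 3, and no library held a count at 4 h or at 12 h; at 8 h the levels were 0, 0.742 and 2.30 CPM. The 0 h ST libraries held 44, 104 and 4 Klf5 counts, 6.58 CPM over the 3. With 3 counts over the group as the floor, Klf5 was 32.4-fold lower at 4 h and 22.9-fold lower at 12 h. These folds allow for counting error only and are no lower bounds. In ST of old mouse 2 at 0 h, 1 repeat held 38 Klf5 counts and another held 0. For young mouse 3 the 0 h level of 0.975 CPM was itself close to the 3-count level at 4 h (0.990 CPM). It was below the 3-count level at 12 h (3.03 CPM), in a library of 990801 counts, so that library cannot show a fall. Of the 152 counts at 0 h, 104 were from young mouse 2. Without young mouse 2 these differences were 11.2-fold at 4 h and 7.06-fold at 12 h, and without young mouse 1 they were 22.2-fold and 14.5-fold. Of 9529 genes counted at 0 h in ST of all 3 mice, 1.21% had no count in any of the 3 at 4 h and 6.65% at 12 h. At both times together the share was 0.682%. Fewer genes were detected in these libraries too, from a median of 12510 at 0 h to 10556 at 4 h and 8346 at 12 h, and the part of this in the result was not tested.

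The other ST courses held Klf5 counts at every time. In stimulated ST of old mouse 2 it stood at 4.05, 24.9, 41.9, 1.75, 8.72, 11.5 and 0.903 CPM from 0 to 12 h. Without ligand it stood at 35.1, 27.6, 23.3 and 14.2 CPM in young mouse 4 and at 10.7, 12.15, 15.4 and 14.2 CPM in old mouse 4 from 0 to 8 h. In MPP at 4 h Klf5 was above 0 h in the same 3 young mice in which ST held no count, at 9.82, 3.06 and 1.32 CPM.

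In the fit, Klf5 in ST was -2.92 ± 1.59 at 2 and 4 h (edgeR adjusted p = 0.59) and -4.99 ± 1.92 at 8 and 12 h (adjusted p = 0.17), where 0.6% of genes passed. The value at 2 and 4 h joins a high and an empty time point, and with 2 h alone it was 1.77 ± 2.11. DESeq2 called Klf5 lower in ST in both windows (adjusted p = 2.1e-06 and 6.5e-11) and called the ST response lower than the MPP response (adjusted p = 0.00898), where edgeR gave -3.78 ± 2.04 (adjusted p = 1). In LT the changes were 3.35 ± 2.13 at 0.5 and 1 h and 2.90 ± 2.07 at 2 and 4 h (edgeR adjusted p = 0.9999 and 0.65). None of the 19 tests of Klf5 passed in edgeR. At 8 and 12 h 0.855% of genes passed in LT and 0.373% in MPP.

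The level of Klf5 differed between mice, and so did the neutrophil granule transcripts. The median over a mouse's libraries was 0.975 CPM for Klf5 and 0.0158% of counts for the granule genes in young mouse 3, 4.08 CPM and 3.44% in young mouse 2, 6.72 CPM and 5.52% in young mouse 1, and 23.4 CPM and 6.16% in young mouse 4. In old mice 2 and 4 the medians were 7.001 CPM with 1.96%, and 10.4 CPM with 1.83%. All 6 granule genes were counted in 105 of 108 libraries. In ST of young mouse 1 the neutrophil granule genes summed to 50390 to 66030 CPM in all 7 libraries, those without Klf5 counts included. In bulk RNA more cells of a type and more RNA per cell cannot be told apart, and the part of granule transcripts in these values was not tested.

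**Figure D4:**
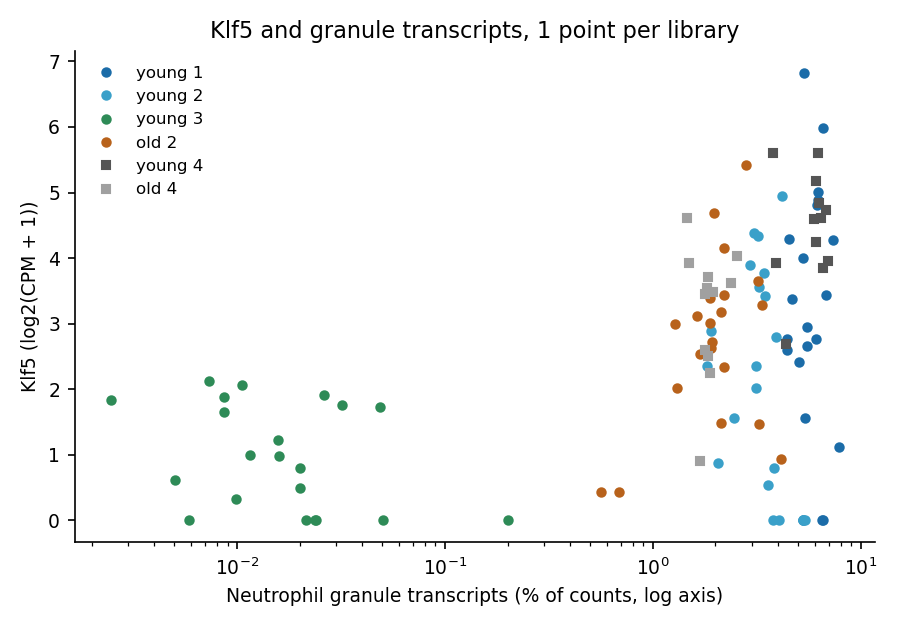
Klf5 as log2(CPM + 1) against the percent of counts in 6 neutrophil granule genes on a log axis, 1 point per library, coloured by mouse. Young mouse 3 sits apart at the left, at 0.2% of counts or less, with Klf5 at 3.37 CPM or less.

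The age comparison changed sign with young mouse 4: old minus young LT at 0 h was -1.53 ± 2.03 on the log2 scale with it and 1.255 ± 1.78 without it (edgeR adjusted p = 1 in both).

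Among Krüppel-like factors, 14 of 17 listed genes were tested and 2 of 126 tests passed, both lower (18 of the 126 had an unadjusted p under 0.05, and DESeq2 passed 1 higher and 7 lower). Both were at 8 and 12 h, 1 of 14 genes in LT and 1 of 14 in ST, where 0.855% and 0.6% of all genes passed in edgeR; DESeq2 passed 3 and 2 of the 14 there, all lower, and 874 and 1197 of all 13678 genes. Klf4, a factor of monocytic differentiation and quiescence, had no count in LT of young mice 1 to 3 at 8 and 12 h, against 16.4 ± 22.5 CPM at 0 h (log2 change -9.19 ± 2.08, edgeR adjusted p = 0.018, a fitted value and no bound). Klf1, the erythroid member, was lower in ST at 8 and 12 h (-9.845 ± 2.45, edgeR adjusted p = 0.044), likewise a fitted value and no bound. With 8 h alone the fitted Klf1 change was the same -9.845. Klf4 and Klf1 lost the call without young mouse 1 (edgeR adjusted p = 0.20 and 0.20) and without young mouse 2 (0.80 and 0.55). They also lost it without the libraries of under 8000 detected genes (0.38 and 0.094) and with 8 h alone (0.20 and 0.455). Klf1 lost it too with the deepest repeat (0.058) and with the compared libraries alone (0.29). Klf6, an early growth factor response gene, stood at 87.4 ± 41.05 CPM at 0 h and 321 ± 90.5 CPM at 1 h in stimulated MPP, and at 439 CPM at 2 h in MPP of young mouse 4 without ligand; no test of Klf6 passed. Klf2 stood at 3.17 ± 5.35 CPM at 0 h and 22.4 ± 16.9 CPM at 0.5 h in young LT, and no test of it passed.

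The genes nearest to Klf5 by course were Tinf2 (r = 0.800), Lmna (0.798), Sertad2 (0.782), Hspa1b (0.774) and Ubald1 (0.765). Tinf2 encodes a telomere-binding protein, Lmna the nuclear lamins A and C, and Hspa1b a heat-inducible chaperone.

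Ikzf1 was counted in every library, at 27.0 to 452 CPM. At 0 h it stood at 161, 117, 88.3 and 209.6 CPM in LT of young mice 1 to 4, at 193, 129, 146 and 398 CPM in ST, and at 181, 153, 178 and 217 CPM in MPP. MPP was the higher of the LT and MPP pair in 4 of 4 young mice at 0 h, a pattern shared by 10.7% of 11568 genes. LT and MPP stood at 89.5 and 150.3 CPM in old mouse 2. In old mouse 4 the order was reversed, at 252 and 229.5 CPM. Repeats of LT at 0 h lay on both sides of the MPP level in 2 young mice. They were at 257 and 38.9 CPM in young mouse 1 and at 184 and 37.9 CPM in young mouse 2. In a fit of the 4 young mice without the mouse as a block, LT minus MPP was -0.33 ± 0.41 (log2, SE, edgeR adjusted p = 1), with an approximate 95% interval of -1.13 to 0.47. Over the 21 pairs of mouse and time in young mice 1 to 3, MPP was higher than LT in 18, and 2.65% of genes reached at least 18.

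In stimulated LT the lowest Ikzf1 levels came at 1 or 2 h. Young mouse 2 went from 117 CPM at 0 h to 70.9, 27.0 and 49.7 CPM at 0.5, 1 and 2 h, and young mouse 3 from 88.3 to 87.6, 32.2 and 102 CPM. The 0 h value of young mouse 2 joins repeats at 184 and 37.9 CPM, and that of young mouse 1 repeats at 257 and 38.9 CPM. The early LT levels of these mice lie within or near that spread, so their 0 h start is uncertain. Young mouse 1 stood at 161, 94.7, 167 and 75.3 CPM, with its low point at 2 h, and old mouse 2 at 89.5, 110.1, 87.6 and 62.7 CPM. The low point was thus at 1 h in 2 mice and at 2 h in the other two. The fitted change in LT at 0.5 and 1 h was -0.58 ± 0.44 (log2, SE; n = 3; edgeR adjusted p = 0.9999). Over the 12 stimulated courses the median fold at 1 h was 0.761. Ikzf1 was below 0 h at 1 h in 7 of 9 young pairs, and 30.4% of 13678 genes reached at least 7. Without ligand, Ikzf1 in LT of old mouse 4 went from 252 CPM at 0 h to 168 and 120 CPM at 2 and 4 h. In LT of young mouse 4 it went from 209.6 to 267 and 296 CPM. With minus without ligand, the LT change over 2, 4 and 8 h was -0.075 ± 0.56 (log2, SE) and did not pass in edgeR.

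In MPP Ikzf1 was high at 2 and 4 h in 2 of the 3 young stimulated mice: 138.5 and 171 CPM in mouse 1, 269 and 255 CPM in mouse 2, and 348 and 401 CPM in mouse 3, against 181, 153 and 178 CPM at 0 h. Old mouse 2 likewise went from 150.3 to 371 and 311 CPM, and MPP of unstimulated young mouse 4 from 217 to 376 and 216 CPM. Old mouse 4, unstimulated, stood at 229.5, 205 and 170.3 CPM. The fitted change in MPP was 0.81 ± 0.47 (edgeR adjusted p = 1; n = 3), and LT minus MPP in the response over all times was -0.64 ± 0.56 (adjusted p = 1). By 12 h Ikzf1 in young MPP stood at 61.2, 126 and 248 CPM.

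**Figure D5:**
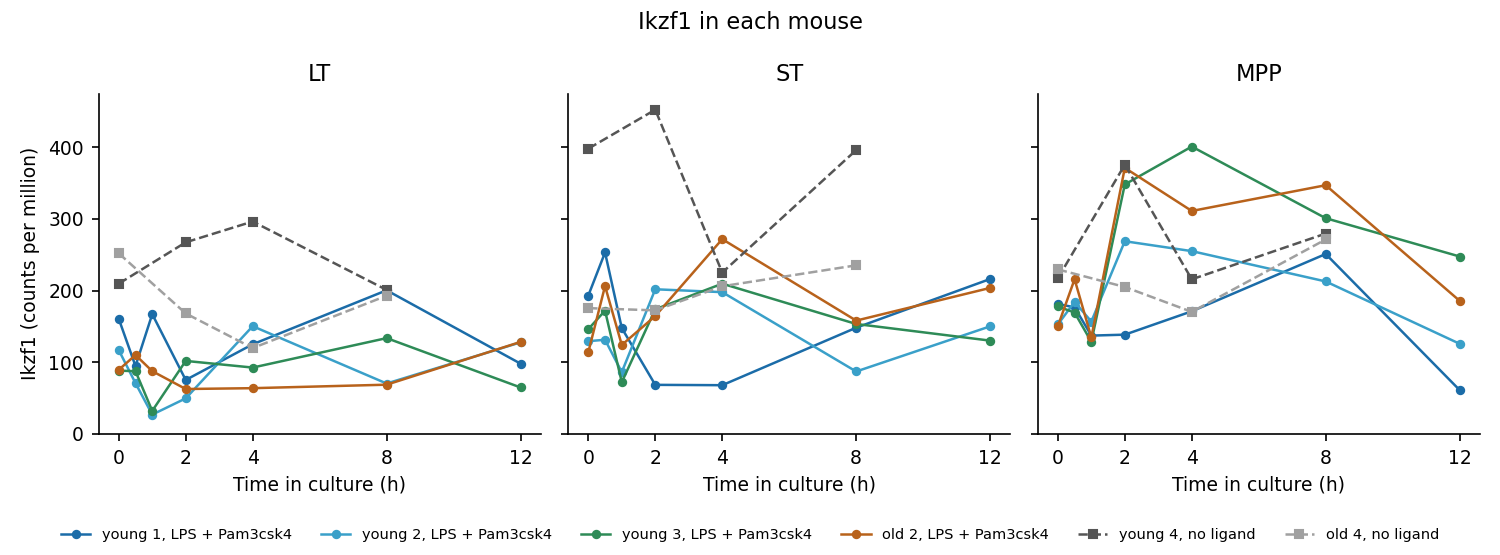
Ikzf1 in CPM against hours in culture for LT, ST and MPP, 1 line per mouse; solid lines are stimulated and dashed lines unstimulated mice. LT lines of young mice 2 and 3 go down to 27.0 and 32.2 CPM at 1 h, and in MPP 4 of 6 lines stand at 269 to 376 CPM at 2 h.

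In ST the young stimulated mice parted, with Ikzf1 at 68.5, 202 and 174 CPM at 2 h from 193, 129 and 146 CPM at 0 h. ST of young mouse 4 stood at 398, 452, 225 and 396 CPM at 0, 2, 4 and 8 h without ligand, and its 2 h value was the highest in the study.

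No Ikaros family gene passed in edgeR in 45 tests of stimulated cells. Of these tests 2 had an unadjusted p under 0.05, and DESeq2 passed 2, both lower. Per comparison 0.154% to 0.855% of all genes passed in edgeR. Ikzf2, which encodes Helios, stood at 31.4 ± 37.1 CPM at 0 h and 1.42 ± 2.46 CPM at 2 h in young LT, and at 34.4 ± 16.3 and 10.04 ± 4.96 CPM in young MPP (SD, n = 3). The 13 NuRD subunits with which Ikaros works passed in 0 of 117 tests in edgeR (2 with an unadjusted p under 0.05; 1 in DESeq2), and their median change over the 9 comparisons lay between -0.42 and -0.0013, beside a range for all genes of -0.43 to -0.10.

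The genes nearest to Ikzf1 by course were Map3k7 (r = 0.808), BC035044 (0.807), Mllt11 (0.793), Sesn1 (0.782) and Zfp319 (0.774). Map3k7 encodes TAK1, a kinase of Toll-like receptor signalling.

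Over all 19 comparisons the 3 genes had 57 tests in edgeR, of which 0 passed and 4 had an unadjusted p under 0.05: Stat3 at 2 and 4 h in each cell type and Klf5 in ST at 8 and 12 h. DESeq2 passed 3, all of Klf5 in ST. The 37 tests other than the 20 fitted changes whose alternative values are counted below had edgeR adjusted p from 0.72 to 1.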

How the data were processed

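Polyadenylated RNA of LT, ST and MPP from 6 mice was measured by SMART-seq2. The authors deposited expected counts per gene, made with RSEM on build mm9 per the submitters' processing notes (version and annotation not given in the sources used here). Libraries under 1000 counts were dropped, technical repeats of a sample were summed and rounded, and CPM was computed from totals. Floors of 3 counts cover counting error only; intervals of fitted changes are normal approximations from the SE between libraries.

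Tests used edgeR 4.0.16 (quasi-likelihood, TMM, filterByExpr, Benjamini-Hochberg at 0.05) in R 4.3.3, over 63 libraries (young 1 to 3, stimulated), 72 (ligand), 12 (0 h, cell types) and 18 (0 h, age). DESeq2 1.42.0, other filters and scalings, single times, blocks and left-out mice were alternatives. Same-numbered libraries come from 1 animal, which pairs them: residuals correlated at 0.18, 0.063 and 0.39 within young mice 1, 2 and 3 and at -0.12, -0.050 and -0.20 with other mice. Named were the members, list genes passing in stimulated cells (at most 4 a list), fixed relatives (not all are reported here) and the 5 genes most alike in course. Junb and Socs3 with and without ligand were also named because they passed. Members and lists were chosen with earlier results of these data known. Scripts were tested on simulated data.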

Additional observations from a re-analysis of the deposited data

Results flagged for a closer look

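Klf5 in young LT at 0 h was 47.4 CPM in mouse 4, against 0 to 4.08 CPM in the other 3 mice. The gap to the nearest mouse, divided by the range, was above Dixon's 95% critical value for 4 samples. Of the 9 young baseline groups looked at (3 genes in 3 cell types), chance flags about 1 in 20.

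In 3 comparisons of 54 looked at, all 3 stimulated young mice moved in the same direction in 1 cell type and in the opposite direction in another. These differences were not tested, and how many of the 54 would arise by chance was not worked out. Stat3 at 0.5 h was above its 0 h level in MPP and below it in LT, a mean difference of 80.1 CPM between the changes. Klf5 at 4 h was above its 0 h level in MPP and below it in ST, with a difference of 8.02 CPM. Ikzf1 at 0.5 h was above its 0 h level in ST and below it in LT, with a difference of 67.0 CPM. Some of these moves were small: Ikzf1 went from 88.3 to 87.6 CPM in LT of young mouse 3 and from 129 to 131 CPM in ST of young mouse 2. Stat3 in MPP went from 178 to 182 CPM in young mouse 2.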

How the results depend on the processing

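Of 256 alternative values for the 20 fitted member changes, 247 kept direction and side of the threshold, 5 newly passed and 4 changed sign. With the mouse as a replicate block Stat3 in MPP at 2 and 4 h passed (1.23), as with the compared libraries alone (1.27), and each setting passed 1 member test; the block changed no other member call. DESeq2 passed 3: Klf5 in ST at 2 and 4 h (-9.49), at 8 and 12 h (-12.2) and against MPP (-8.34). Klf5 in ST with 2 h alone was 1.77. Stat3 in LT with minus without ligand became 0.038 without young mouse 1 and 0.13 without libraries of under 8000 detected genes, and Klf5 in old minus young LT became 1.255 without young mouse 4. Klf5 at 0.5 h exceeded 0 h in 88.9% of pairs with the deepest repeat. The cause was not tested in any of these. Both single-time fits and the exclusion of libraries under 8000 detected genes were chosen after seeing the data.

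Leaving out 1 mouse at a time, Stat3 at 2 and 4 h lay between 0.79 and 1.36 in LT, 0.94 and 1.09 in ST, and 1.08 and 1.37 in MPP. Klf5 in ST lay between -3.19 and -2.16 at 2 and 4 h, between -6.15 and -4.08 at 8 and 12 h, and between -4.26 and -3.01 against MPP. Stat3 with minus without ligand in LT lay between -0.41 and 0.038, and Klf5 in old minus young LT between -1.94 and 1.255. Member tests passed in 0 cases under each, and the shares of pairs stayed at 100%.

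Over the 9 stimulated comparisons edgeR passed 21 to 117 genes (median 46), DESeq2 105 to 1197 (320), the replicate block 50 to 789 (274), the compared libraries alone 1 to 384 (31), young mouse 4 added 37 to 281 (90), and the fit without young mouse 2 0 to 9 (6). Without young mouse 1 or 3 the ranges were 15 to 122 (47) and 22 to 470 (65), and without libraries of under 8000 detected genes 33 to 180 (73). Of 160 alternative values for the 12 named gene changes, 25 lost the call, 4 gained it and none changed sign. Klf5 is limited by depth: 3 counts were 0.255 to 3.03 CPM.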
